A study of Oryza sativa with 9 samples.

Results

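The cytochrome P450 genes of rice diterpenoid phytoalexin synthesis were followed by 9 probe sets for 8 genes, out of 57194 probe sets tested and 17905 genes with a probe set of their own. They were all probe sets with a single annotated gene whose symbol or synonym began with CYP76M, CYP71Z or CYP99A. They were chosen by name and not by level, though with earlier results of these data known, and all 9 are reported. The values came from leaf RNA of unstressed rice (Oryza sativa) seedlings aged 21 days and grown in liquid culture, measured on 9 Affymetrix arrays. Of these, 3 were labelled as overexpressing OsHMGB707 (OE), 3 as having it silenced by RNA interference (RNAi) and 3 as wild type (WT). OsHMGB707 encodes a chromatin protein with a high mobility group box. Per the study's methods, all plants had the japonica background Zhonghua11, the OE construct was driven by the CaMV35S promoter, and the RNAi construct was carried by the vector pTCK303 with a ubiquitin promoter. The labels do not name the transformed line on the arrays, so each transgenic group may descend from a single insertion. Each replicate was a pool of seedlings, and no plants with an empty vector were among the arrays. With this design, transformation, selection and growth as a group cannot be told apart from OsHMGB707.

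Rice defends itself against fungi and bacteria with phytoalexins, small antimicrobial compounds that infected leaves make from geranylgeranyl diphosphate. Class II cyclases such as CPS2 and CPS4 fold this precursor, kaurene synthase-like enzymes (KSL) complete the carbon skeleton, and P450s then add oxygen in several steps. The genes lie in clusters. The cluster on chromosome 2 holds CPS2 and KSL7, which make the skeleton of the phytocassanes, with P450s of the CYP76M and CYP71Z families. The cluster on chromosome 4 holds CPS4, KSL4, the dehydrogenase MAS and both CYP99A genes, which act in momilactone synthesis. Fungal elicitors and jasmonate are known inducers of both clusters in rice cells, and unchallenged leaves make little of the products. In bulk leaf RNA, fewer cells that express a gene and less RNA per cell cannot be told apart.

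In the reference gene table of assembly ASM3414082v1, the chromosome 2 genes ran in the order CYP76M5, CYP76M8, the unnamed LOC4329723, KSL7, CYP71Z6, CYP71Z7, CPS2, KSL5, KSL6 and CYP76M6. On chromosome 4 the order was CPS4, CYP99A3, the unnamed LOC4335092, MAS, KSL4 and CYP99A2. The eighth gene, LOC4341447, was named CYP76M7 but stood on chromosome 6, away from both clusters. That entry listed 2 locus synonyms. The first, OsJ_07204, falls in the numbering between CYP76M8 (OsJ_07203) and CYP71Z6 (OsJ_07206) of chromosome 2, and the second was OsJ_21875. The CYP76M7 of the phytocassane pathway is known as a gene of the chromosome 2 cluster. Its probe set is therefore called here by the name the reference gives it, and which of these loci its probes read was not settled.

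OsHMGB707 itself read 12.25 to 12.37 on the arrays labelled OE, 10.03 to 10.43 on the RNAi arrays and 12.38 to 12.39 on the WT arrays (log2 scale). The OE label was thus not borne out by these values. Per the methods the construct carried the full-length cDNA, and whether the probes lie within it was not analysed here. All directions below refer to the arrays labelled OE. Across all probe sets the array medians were 5.89 to 5.94, and Pearson correlations were 0.992 to 0.998 between arrays of the same group and 0.988 to 0.995 between groups. The 12 probe sets of leaf mesophyll genes, such as OsrbcS and LHCP, averaged 11.88 to 11.99 on the OE arrays, 11.81 to 11.91 on the RNAi arrays and 11.85 to 11.98 on the WT arrays. The 5 of root genes (IRT1, IRT2, Lsi1, Lsi2 and NRT2.2) averaged 6.19 to 6.22, 6.23 to 6.46 and 6.20 to 6.24 in the same order of groups, and none of either list was called. RNAi replicate 3 had the highest root gene mean, 6.46, and was the highest array for 3 of the 5 and the lowest for 1. Differences between the 3′ and 5′ control probe sets were 2.02 to 2.30 for actin, 0.39 to 0.54 for cyclophilin, -0.12 to 0.18 for GAPDH and -3.36 to -2.43 for EF1a over the 9 arrays. The last was the widest, with its lowest value on an RNAi array and its highest on a WT array.

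CYP76M7 was lower on the OE arrays than on the WT and RNAi arrays, and was the only one of the 9 members that passed the test against both. CYP71Z7 passed it against RNAi alone, and that call depended on single arrays and on the fit. In the phytocassane pathway CYP76M7 hydroxylates the cassadiene skeleton. Its probe set read 9.27, 9.17 and 8.92 on the OE arrays, 10.16, 10.73 and 10.98 on the RNAi arrays, and 10.50, 10.87 and 10.82 on the WT arrays. All 3 OE arrays lay below all 6 others, while the RNAi and WT arrays overlapped. The mean was 9.12 ± 0.18 in OE against 10.73 ± 0.20 in WT (SD, n = 3 each), a difference of -1.61 (SE 0.19, 95% interval -2.04 to -1.18), or 3.06-fold lower in OE (limma adjusted p = 0.00236). Against RNAi, with a mean of 10.62 ± 0.42 (SD, n = 3), the difference was -1.50 (SE 0.19), or 2.83-fold lower in OE (limma adjusted p = 0.00216). Between RNAi and WT the difference was -0.11 with an interval of -0.54 to 0.32 (limma adjusted p = 0.860). Both differences of OE were called under each of the 16 alternatives, with adjusted p-values of 0.000433 to 0.0440 against WT and 0.000463 to 0.0362 against RNAi.

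CYP71Z7, which hydroxylates the same cassadiene skeleton at another carbon, read 9.46, 9.52 and 8.74 on the OE arrays. It read 10.04, 10.79 and 11.65 on the RNAi arrays, and 9.67, 10.52 and 10.21 on the WT arrays. The OE arrays were again the lowest of the 9, but the RNAi arrays spread over more than a whole log2 unit. The difference of OE from RNAi was -1.59 (SE 0.38, 95% interval -2.43 to -0.75), or 3.01-fold lower in OE (limma adjusted p = 0.0372). This call was lost without any 1 of 7 of the 9 arrays, namely each OE array, RNAi replicates 2 and 3, and WT replicates 2 and 3, where the adjusted p reached 0.118. It was also lost when only the compared groups were fitted (adjusted p = 0.0844) and under 3 other settings. Against WT the OE arrays differed by -0.89 (95% interval -1.74 to -0.05), which missed the threshold (limma adjusted p = 0.266). The RNAi arrays differed from WT by 0.69 (95% interval -0.15 to 1.54, limma adjusted p = 0.489), and by 0.28 without RNAi replicate 3. Whether the differences of the OE arrays vary between CYP71Z7 and CYP76M7 was not tested.

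**Figure D1:**
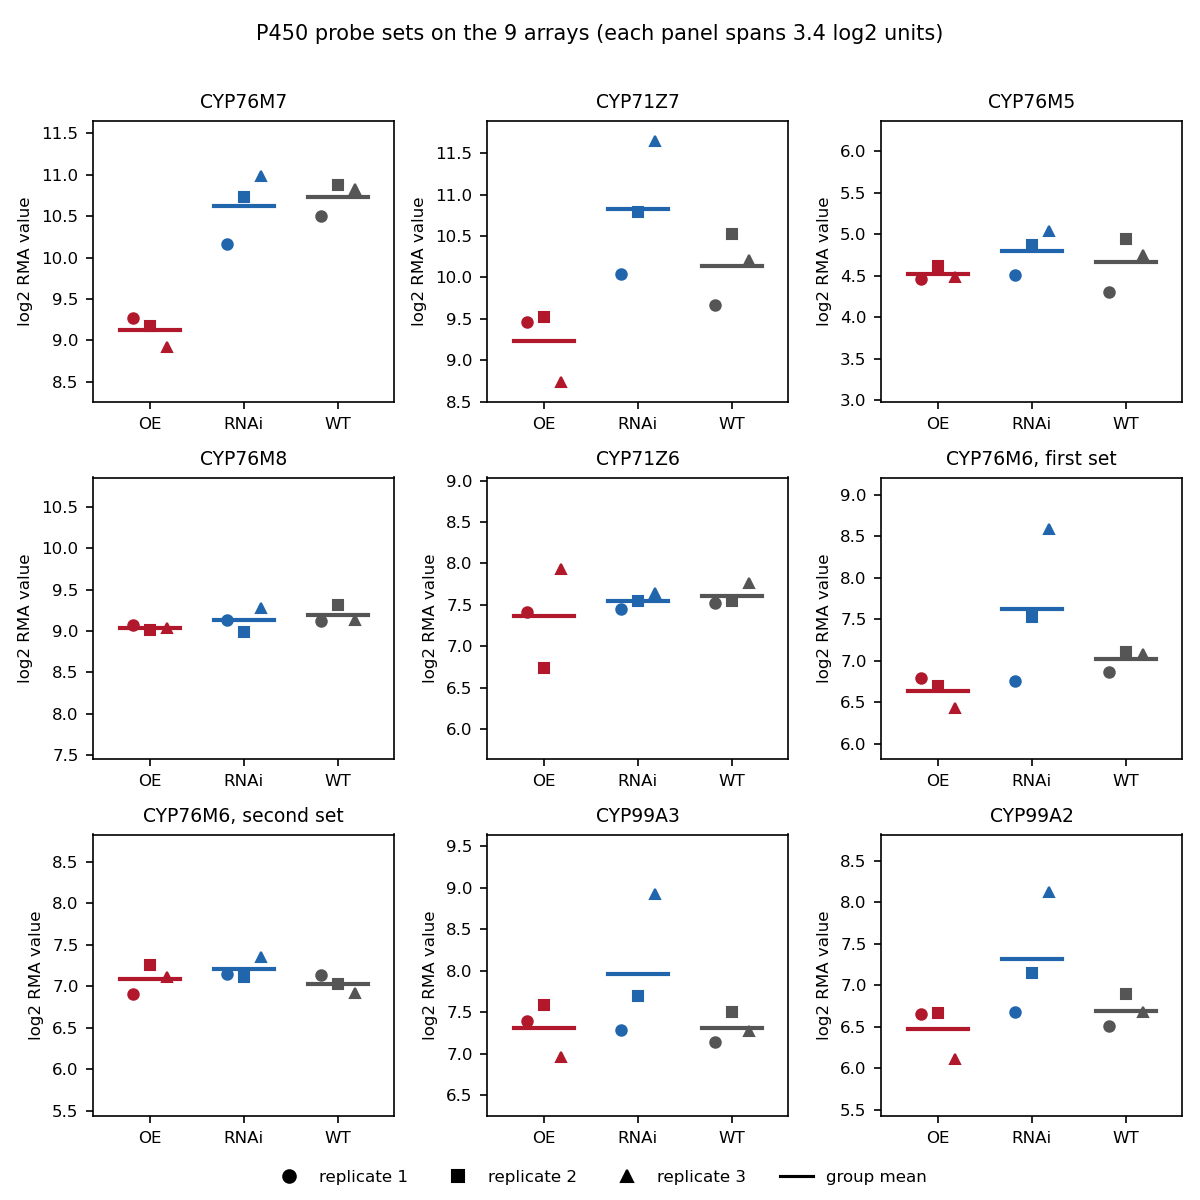
Level of each of the 9 P450 probe sets (log2 RMA value, vertical axis) on the arrays labelled OE, RNAi and WT, with the symbol giving the replicate number and the line the mean of 3 arrays. For CYP76M7 the OE arrays sit between 8.92 and 9.27, below all others, and for CYP71Z7, CYP76M6 (first set), CYP99A3 and CYP99A2 RNAi replicate 3 stands above the other 8 arrays.

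The paralogue of CYP71Z7 in the same cluster had other arrays high and low. CYP71Z6, which hydroxylates isokaurene on the way to oryzalides, read 7.41, 6.74 and 7.93 on the OE arrays, 7.45, 7.55 and 7.64 on the RNAi arrays, and 7.53, 7.54 and 7.76 on the WT arrays. OE replicate 3, the lowest array for CYP71Z7, was the highest of the 9 for CYP71Z6, and OE replicate 2 was the lowest. The SD of CYP71Z6 in OE was 0.59, larger than that of 99.6% of all probe sets in that group, and its differences of -0.25 from WT and -0.19 from RNAi were not called (limma adjusted p = 0.642 and 0.687).

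The other CYP76M genes on chromosome 2 encode hydroxylases with broad activity on pimaradienes and sandaracopimaradiene, the skeletons of momilactones and oryzalexins. CYP76M8 was bright and nearly level on all arrays, at 9.01 to 9.07 in OE, 8.99 to 9.28 in RNAi and 9.13 to 9.31 in WT. Its OE arrays were all below its WT arrays, by 0.15 on average, which was not called (limma adjusted p = 0.406, 95% interval of the difference -0.35 to 0.04). The probe set of CYP76M8 carries the suffix x, which marks probes that may also match other transcripts, so paralogues may share in its value. CYP76M5 was dim, at 4.46 to 4.61 in OE, 4.50 to 5.03 in RNAi and 4.31 to 4.94 in WT, below the median of every array. The groups of CYP76M5 overlapped in all 3 comparisons.

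CYP76M6 had 2 probe sets, and they disagreed. The first read 6.79, 6.69 and 6.43 on the OE arrays, 6.75, 7.52 and 8.59 on the RNAi arrays, and 6.86, 7.11 and 7.08 on the WT arrays. Its OE arrays were all below WT, by 0.38 on average, and differed from RNAi by -0.98, and neither was called (limma adjusted p = 0.644 and 0.141). The spread of the RNAi arrays also entered the test against WT. With only OE and WT fitted, the limma adjusted p of that difference was 0.135. Without RNAi replicate 3 the difference from RNAi was -0.50 (adjusted p = 0.220), and without RNAi replicate 1 it was called (adjusted p = 0.0149). The second set stayed between 6.91 and 7.26 in OE, 7.11 and 7.35 in RNAi, and 6.92 and 7.13 in WT, with differences of 0.07 for OE and 0.18 for RNAi from WT. Which of the 2 follows the transcript of CYP76M6 more closely was not tested.

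The CYP99A genes on chromosome 4 oxidise the pimaradiene skeleton of momilactones. CYP99A3 read 7.40, 7.58 and 6.96 on the OE arrays, 7.28, 7.69 and 8.92 on the RNAi arrays, and 7.14, 7.50 and 7.28 on the WT arrays. OE and WT lay in the same range, with a difference of 0.01 and an interval of -0.77 to 0.78. This interval rests on the spread in all groups, the RNAi arrays included. Its SE was 0.35, against 0.16 when only OE and WT were fitted. CYP99A2 read 6.65, 6.67 and 6.11 on the OE arrays, 6.68, 7.15 and 8.13 on the RNAi arrays, and 6.50, 6.90 and 6.68 on the WT arrays. In both genes 1 array, RNAi replicate 3, stood more than a log2 unit above every OE and WT array. The OE minus RNAi differences were -0.65 for CYP99A3 and -0.84 for CYP99A2 and were not called (limma adjusted p = 0.311 and 0.150). Without RNAi replicate 3 they were -0.17 and -0.44, and without RNAi replicate 1 the difference of CYP99A2 was called (adjusted p = 0.0382).

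**Figure D2:**
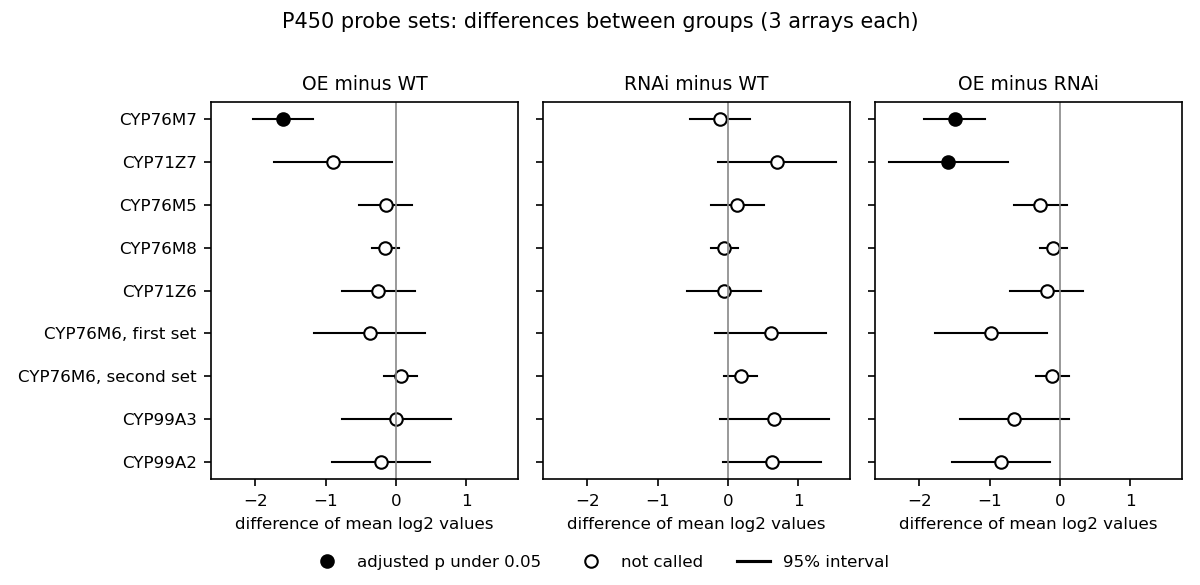
Differences of mean log2 values for OE minus WT, RNAi minus WT and OE minus RNAi (horizontal axis), with 95% intervals from the limma fit and filled points where the adjusted p was under 0.05. CYP76M7 is filled in both comparisons of OE, at -1.61 and -1.50, CYP71Z7 in OE minus RNAi at -1.59, and no point is filled for RNAi minus WT.

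Counted together, 1 of the 9 members was called in OE against WT, CYP76M7, which was lower, where 1.69% of all probe sets were called lower and 2.94% were called in either direction. In OE against RNAi 2 of 9 were called, both lower, against 3.02% of all probe sets called lower and 6.16% in either direction. In RNAi against WT none was called by limma, and none had an unadjusted p under 0.05. Of all 57194 probe sets 0.479% were called there, and 7162 had an unadjusted p under 0.05. OE lay below WT without overlap for 4 of the 9 members (CYP76M7, CYP71Z7, CYP76M8 and the first set of CYP76M6), against 12.0% of all probe sets. OE lay below RNAi without overlap for 3 of 9 (CYP76M7, CYP71Z7 and CYP99A2), against 11.8% of all. The median difference over the members was -0.22 for OE minus WT, 0.18 for RNAi minus WT and -0.65 for OE minus RNAi, where all probe sets had medians of 0.0167, 0.0018 and 0.0035. Single arrays moved these medians. Without RNAi replicate 3 that of OE minus RNAi was -0.17 and that of RNAi minus WT 0.11, and without RNAi replicate 1 they were -0.99 and 0.28. Without WT replicate 2 the median of OE minus WT was -0.11. The comparisons share arrays, so these counts are not independent of each other.

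For most members single arrays stood out within a group. RNAi replicate 3 was the highest of the 9 arrays for 7 of the 9 members, and for 17.2% of all probe sets. This is also the array with the highest mean of the root genes, though not the highest array for each of them. The part of root genes in the members' levels was not tested. OE replicate 3 was the lowest for 5 of 9, and for 12.0% of all. In the RNAi group the SD of the first CYP76M6 set was 0.92, of CYP99A3 0.85, of CYP71Z7 0.80 and of CYP99A2 0.74, larger than those of 99.5% to 99.8% of all probe sets in that group, whose median SD was 0.11. In WT the SD of CYP71Z7 was 0.43, larger than that of 99.4% of all probe sets there, while CYP99A3 had 0.18 and CYP99A2 0.20. Pools of untransformed plants thus also spread widely for CYP71Z7.

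Some members on different chromosomes had the same order of arrays within each group. For CYP71Z7 replicates ran 2, 1, 3 from high to low in OE, 3, 2, 1 in RNAi and 2, 3, 1 in WT. Of the 8 other members 2 had exactly this order in all 3 groups, both CYP99A genes on chromosome 4. Of the 8 probe sets of the other genes in both clusters 3 had it, KSL7 (first set), LOC4329723 and CPS4, and outside both clusters so did CYP701A9. Of all other tested probe sets, 0.815% had it. CYP76M7, the first set of CYP76M6, CPS2, MAS, KSL10 and CYP701A8 differed from it in the place of OE replicates 1 and 2 alone. CYP76M5, CYP76M8, CYP71Z6, the second sets of CYP76M6 and KSL7, KSL4 and KSL5 had other orders. Replicate numbers name pools and have no order of their own, and this likeness was noticed after the values were seen and has no test. Over all 36 pairs of members, deviations from the group means over 9 arrays correlated at Pearson r of -0.37 to 0.99, with a median of 0.52. The 6 pairs among CYP71Z7, CYP76M6 (first set), CYP99A2 and CYP99A3, picked out after their values were seen, gave 0.91 to 0.99, and 0.80 to 0.98 without RNAi replicate 3. These arrays share their groups and their normalization, so the values are a description.

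Most of the other genes in both clusters also had RNAi replicate 3 as the highest array, 6 of 8 probe sets. CPS2 read 5.87, 5.62 and 4.98 on the OE arrays, 5.76, 6.31 and 7.79 on the RNAi arrays, and 5.43, 7.13 and 5.71 on the WT arrays. The first probe set of KSL7, listed under the symbol DTC1, read 5.74, 5.83 and 5.35 on the OE arrays, 5.76, 6.18 and 7.28 on the RNAi arrays, and 5.48, 6.39 and 5.83 on the WT arrays. In both, the groups overlapped in every comparison. On chromosome 4, CPS4 read 8.04, 8.16 and 7.28 on the OE arrays, 7.38, 8.09 and 9.33 on the RNAi arrays, and 7.89, 8.45 and 8.26 on the WT arrays. MAS stayed between 5.92 and 6.28 in OE, 5.85 and 6.83 in RNAi, and 5.87 and 6.41 in WT. KSL4 (symbol DTS2) was dim but for 1 array, with 3.65 to 3.76 in OE, 3.63 to 4.94 in RNAi and 3.60 to 4.05 in WT. KSL5 (symbol KS6) and the second set of KSL7 did not show RNAi replicate 3 as highest. The unnamed LOC4329723, singled out after its values were seen, read 7.71, 8.04 and 7.09 in OE, 8.04, 8.37 and 9.26 in RNAi, and 8.20, 8.56 and 8.35 in WT, with a difference of -0.75 between OE and WT that was not called (limma adjusted p = 0.247).

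**Figure D3:**
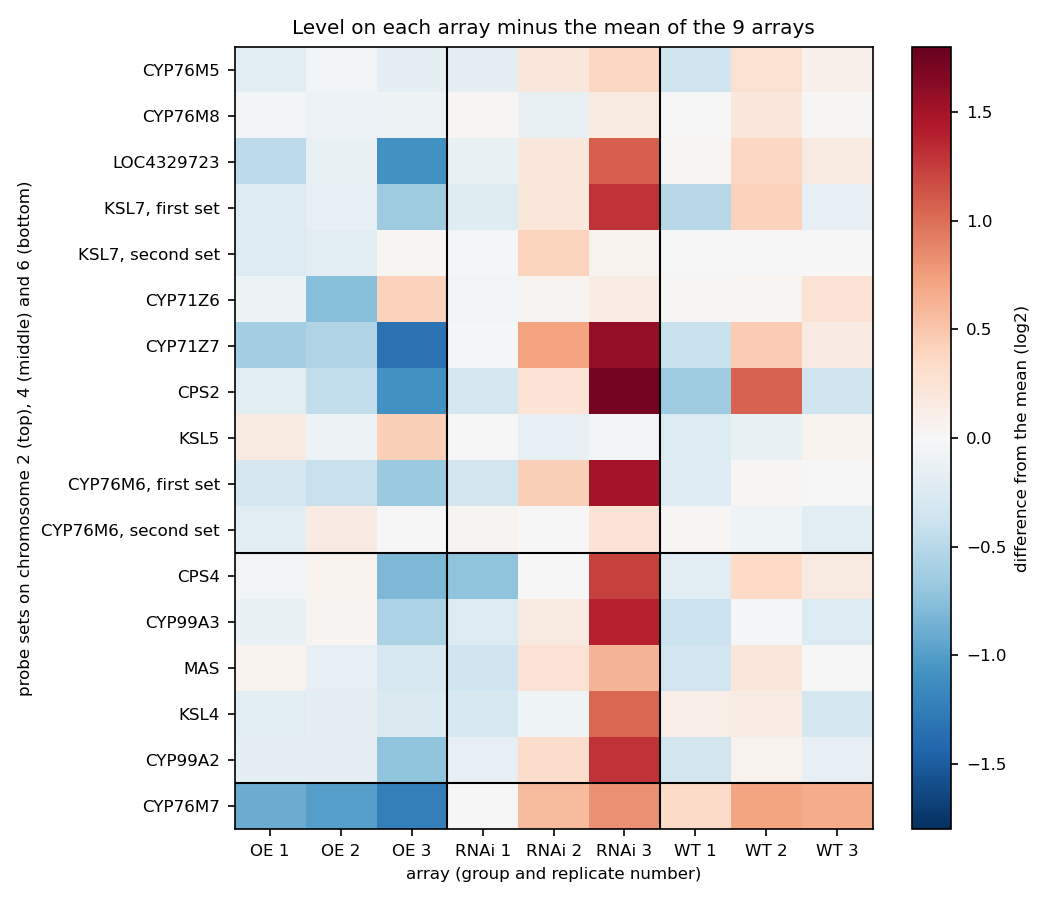
Level on each array minus the mean of the 9 arrays (log2, colour), for the members and the other genes in both clusters. The chromosome 2 cluster is on top, the chromosome 4 cluster in the middle and the CYP76M7 probe set at the bottom, with the OE arrays left of RNAi and WT. RNAi 3 is above the mean in 15 of the 16 rows of both clusters, all but KSL5, and OE 3 below it in 12, while CYP76M7 is blue on all 3 OE arrays and red or pale on the 6 others.

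None of the 17 probe sets for 15 genes of diterpene cyclases and precursor synthesis was called by limma in any comparison. An unadjusted p under 0.05 was found for 2, 1 and 3 of them in OE against WT, RNAi against WT and OE against RNAi. Of all 57194 probe sets 9670, 7162 and 12458 had such a p. Of the 17, 2 belong to the molybdenum cofactor sulfurase MCSU3, which the name search for MCS also matched. The largest differences of OE from WT were -0.64 for KSL10 (symbol KS10), a sandaracopimaradiene synthase of oryzalexin synthesis, -0.60 for CPS2 and -0.37 for CPS4 (limma adjusted p = 0.562, 0.628 and 0.712). CPS1, the cyclase of gibberellin synthesis, read 7.28 to 7.72 in OE, 6.97 to 7.34 in RNAi and 7.10 to 7.15 in WT, and was not called (limma adjusted p = 0.179 for OE against WT). Among the upstream enzymes of the plastid isoprenoid pathway, ISPH read 12.81 to 13.07 in OE, 12.90 to 13.03 in RNAi and 12.87 to 13.02 in WT. The kinase CDPMEK of the same pathway spanned 0.75 over the 9 arrays, between 7.30 and 8.05.

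Of the 5 probe sets of other enzymes of the pathway, 1 was called, in OE against RNAi, where 6.16% of all probe sets were called. CYP701A9, a P450 of the kaurene oxidase family, read 5.43, 5.60 and 5.43 on the OE arrays, 6.24, 6.65 and 7.50 on the RNAi arrays, and 5.94, 6.67 and 6.30 on the WT arrays. All OE arrays were below all others, as for CYP76M7. The difference from RNAi was -1.31 (SE 0.28), or 2.48-fold lower in OE (limma adjusted p = 0.0247), a call lost without any of 4 arrays, each OE array and RNAi replicate 2. The difference from WT was -0.82 and was not called (limma adjusted p = 0.172). Its neighbour CYP701A8, which hydroxylates phytoalexin skeletons, read 6.23 to 6.82 in OE, 6.28 to 8.28 in RNAi and 6.68 to 7.85 in WT, and was not called.

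Of 25 probe sets of other named P450s, 4, CYP701A9 included, were already counted among the 5 above. OE against WT gave 1 higher and 1 lower call, and OE against RNAi 2 higher and 3 lower. Of all probe sets 2.94% and 6.16% were called in these comparisons. RNAi against WT gave none by limma, where 0.479% of all were called. In it 4 of the list had an unadjusted p under 0.05, and 7162 of all 57194 did. The P450 called lower against WT was an allene oxide synthase, an enzyme of jasmonate synthesis (symbol AOS, LOC4332121). It read 10.30, 10.28 and 10.02 in OE, 10.78, 10.77 and 10.86 in RNAi, and 10.88, 11.07 and 11.13 in WT. It was 1.78-fold lower in OE than in WT and 1.52-fold lower than in RNAi (limma adjusted p = 0.00193 and 0.00624). The abscisic acid hydroxylase ABA8OX2 was higher, at 8.36, 7.97 and 8.29 in OE against 7.68, 7.52 and 7.64 in WT, a 1.51-fold difference (limma adjusted p = 0.0137). ABA8OX1, of the same family, differed by 1.07 between OE and RNAi, and CYP734A6, which inactivates brassinosteroids, by -0.51 (limma adjusted p = 0.00926 and 0.00112).

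Among 15 probe sets of known regulators of phytoalexin genes, OE against WT gave 1 higher call, RNAi against WT 1 lower, and OE against RNAi 3 higher. Of all probe sets 2.94%, 0.479% and 6.16% were called in these comparisons, in either direction. A probe set of OsWRKY71 read 12.41, 12.42 and 12.23 in OE, 11.52, 11.51 and 11.59 in RNAi, and 11.80, 11.89 and 12.12 in WT. It was higher in OE by 0.81 than in RNAi and by 0.41 than in WT (limma adjusted p = 0.00114 and 0.0460). The other set of OsWRKY71 was 0.98 higher in OE than in RNAi (limma adjusted p = 0.00110). Its difference of 0.445 between OE and WT was not called. The MAP kinase BIMK1 was 0.77 higher in OE than in RNAi and differed by -0.64 between RNAi and WT (limma adjusted p = 0.00380 and 0.0401). The calls against WT of OsWRKY71 and BIMK1 were each lost without any of 7 arrays. Of these 15, 2 belong to an actin gene, AC1, which the name search for the small GTPase OsRac1 also matched, and they stayed in the count.

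The 44 probe sets of defence response genes had a mean level of 8.55 to 8.71 on the OE arrays, 8.57 to 9.11 on the RNAi arrays and 8.83 to 8.93 on the WT arrays. RNAi replicate 3 was the highest array for 20 of the 44 and the lowest for 6, and OE replicate 3 was the lowest for 12 and RNAi replicate 1 for 10. Over all probe sets RNAi replicate 3 was the highest for 17.2% and the lowest for 16.1%. OE replicate 3 was the lowest for 12.0% of all and RNAi replicate 1 for 12.3%. The part of the defence genes in the members' differences was not tested. In OE against WT 2 were called, both lower, where 2.94% of all probe sets were called in either direction. They were the allene oxide synthase above and LOC4329684, with the symbol OPR7 and the synonym OsOPR8, at a difference of -0.68 (limma adjusted p = 0.0343). OsOPR7 is a synonym of another gene of the list, OG1. It read 10.67 to 10.78 in OE and 10.79 to 11.05 in WT, and was not called in any comparison. In OE against RNAi 1 was higher, the chitinase Cht10 by 0.52, and 3 were lower, PAL06, a phenylalanine ammonia-lyase, by 0.72, with OPR7 and the allene oxide synthase. Of all probe sets 6.16% were called there. RNAi against WT gave none by limma, where 0.479% of all were called. In it 7 of the list had an unadjusted p under 0.05, and 7162 of all 57194 did. The median difference of the list was -0.14 for OE minus WT and -0.08 for OE minus RNAi. Of 9 probe sets of gibberellin synthesis and turnover none was called by limma in any comparison, and 1, 2 and 3 had an unadjusted p under 0.05, with CYP714C2, CYP714D1 and CYP88A5 the largest in OE against WT. Over all 57194 probe sets 9670, 7162 and 12458 had such a p.

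Some flower genes differed between OE and WT. Of 14 probe sets for anther and flower genes, 3 were called higher in OE (Lhs1, MADS and MADS58), 1 lower (AP3) and 10 not, where 2.94% of all probe sets were called. The median difference of the list was 0.09 for OE minus WT and -0.03 for OE minus RNAi. Its mean level, which Lhs1 raised most, was 5.51 to 5.57 on the OE arrays, 5.21 to 5.30 on the RNAi arrays and 5.20 to 5.25 on the WT arrays. The anther genes RTS, TDR and C6 were not called. Lhs1 (OsMADS1) was 5.04-fold higher in OE than in WT (limma adjusted p = 4.89e-06). The part of these transcripts in the levels of the P450s was not tested.

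By pattern over the 9 arrays, the named genes most like CYP76M7 among 3186 probe sets were CTU2 (Pearson r = 0.989), CRO1 (0.980), CAD8A (0.980), GCN5 (0.976) and SHL2 (0.975). CAD8A was lower in OE by 0.73 than in WT and by 0.81 than in RNAi (limma adjusted p = 0.0113 and 0.00392). By deviations from the group means, the 5 most like it were RPL30, ABF2, BGLU12, BIMK2 and CYCD5-1 (r = 0.985 to 0.988). For CYP71Z7 they were ABCG48, LAC24, CYP701A9, 2-HPCL and FIB over the 9 arrays (r = 0.968 to 0.982), and PAL06, IAA5, CPS4, OsRan1 and BIMK2 by deviations (r = 0.974 to 0.985). The laccase LAC24 had the widest difference of these, at 6.78, 7.25 and 5.81 in OE, 8.25, 9.14 and 10.23 in RNAi, and 7.88, 8.59 and 8.04 in WT, or 6.02-fold lower in OE than in RNAi (limma adjusted p = 0.0128). These r values rest on 9 arrays in 3 groups, were the highest of many, and carry no test.

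The calls of the members were recomputed under 16 alternatives. CYP76M7 stayed below an adjusted p of 0.05 throughout in both comparisons of OE, nearest to it in the unmoderated test, while CYP71Z7 crossed it in 11 of 16 for OE against RNAi and never reached it for OE against WT, where its lowest adjusted p was 0.134.

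**Figure D4:**
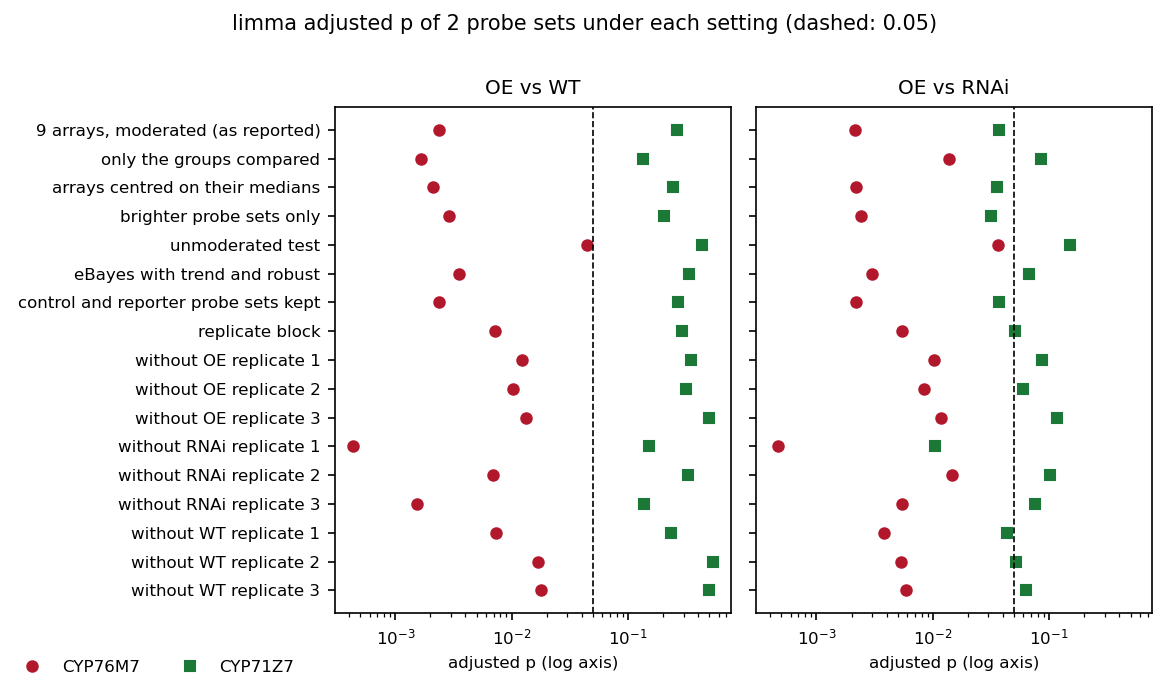
Adjusted p of CYP76M7 and CYP71Z7 (horizontal log axis, dashed line at 0.05) as reported and under each of 16 alternatives, for OE against WT on the left and OE against RNAi on the right. CYP76M7 lies left of the line in every row of both panels, and CYP71Z7 scatters around it for OE against RNAi and lies right of it for OE against WT.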

How the data were processed

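The authors deposited 1 table of log2 values, made with RMA (background correction, quantile normalization and summary of the probes of a set), a tool listed without a version in the processing notes. RMA compresses low levels and reduces changes shared by most transcripts. Of 57381 probe sets, 187 control and reporter sets were left out, leaving 57194. Genes came from the platform annotation joined to the RefSeq gene table of assembly ASM3414082v1, with 22436 probe sets having 1 gene. No coordinates are given because builds could not be matched.

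Groups and replicate numbers came from the labels. The test was limma 3.58.1 under R 4.3.3 (lmFit and eBayes, a mean per group over all 9 arrays, 6 residual and 3.78 prior degrees of freedom, two-sided, Benjamini-Hochberg over 57194 probe sets, called at an adjusted p under 0.05). Adjusted p-values are limma's. P-values measure the spread between pools of seedlings. In a simulation of OE against WT over 57194 probe sets, 193 of 200 shifts of 1.5 were recovered, with 8 false calls. Its noise was independent between probe sets and had the same spread in every group. It therefore does not show how the test behaves where probe sets vary together or groups spread unequally, as for several members here. The 9 gene lists and the members were chosen with earlier results of these data known, and lists are described by counts and medians. Named genes were all members, called members of each list (up to 5, otherwise the 3 of largest difference of OE from WT), and the 5 named genes most like CYP76M7; those most like CYP71Z7 were added after seeing the data. Alternatives were the 2 groups alone, median centring, brighter probe sets, an unmoderated test, eBayes with trend and robust, controls kept, a replicate block, and each array left out. Promoter motifs and protein identities were not analysed here.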

Additional observations from a re-analysis of the deposited data

Results flagged for a closer look

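The OE and RNAi arrays differed by the limma test of OE against RNAi for the following probe sets, listed because that difference itself passed the threshold. For CYP76M7 it was -1.50 (adjusted p = 0.00216), with -1.61 for OE and -0.11 for RNAi against WT. For CYP71Z7 it was -1.59 (adjusted p = 0.0372), with -0.89 and 0.69, and for CYP701A9 -1.31 (adjusted p = 0.0247), with -0.82 and 0.49. In these 2 the call rests on single arrays, as given above.

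Among the other P450s the difference was 1.07 for ABA8OX1, 0.68 for ABA8OX2, -0.60 for AOS and -0.51 for CYP734A6 (adjusted p = 0.00926, 0.00425, 0.00624 and 0.00112). Among regulators it was 0.98 and 0.81 for both probe sets of OsWRKY71 and 0.77 for BIMK1 (adjusted p = 0.00110, 0.00114 and 0.00380). Among defence genes it was -0.72 for PAL06, -0.55 for OPR7 and 0.52 for Cht10 (adjusted p = 0.0306, 0.04999 and 0.0224). The OPR7 value lies just inside the threshold and its call was lost in 8 of 9 fits that left out an array. Among flower genes it was 2.45 for Lhs1, 1.12 for MADS58, 1.04 for MADS and -0.42 for AP3 (adjusted p = 3.5e-06, 0.00530, 0.000812 and 0.0225).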

How the results depend on the processing

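CYP76M7 kept its calls in both comparisons of OE under all 16 alternatives. CYP71Z7 in OE against RNAi kept a difference of -1.59 but lost its call with only the 2 groups fitted (adjusted p = 0.0844), in the unmoderated test (0.152), with eBayes trend and robust (0.0672) and with the replicate block (0.0513). Leaving out 1 array gave -1.98 to -1.18 (adjusted p 0.0104 to 0.118). The cause of these losses was not tested.

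The number of probe sets called was 1680 for OE against WT, 274 for RNAi against WT and 3521 for OE against RNAi. It was 731, 69 and 1623 in the unmoderated test, 167 (RNAi against WT) and 1805 (OE against RNAi) with only 2 groups, and 937 for OE against WT with the replicate block. Leaving out 1 array gave 527 to 1939, 118 to 512 and 1693 to 4141. Centring gave 595 higher and 1230 lower in OE against WT, against 716 and 964 as reported. Same-numbered arrays of different groups correlated at -0.33 to 0.12 in their deviations, and differently numbered ones at -0.21 to 0.28. Same-numbered arrays were thus not more alike, and whether the numbers mark a pairing was not tested. Apart from CYP71Z7, the block changed no call of a member. With only the brighter probe sets the median of the members in RNAi against WT was 0.39, against 0.18. The number of members called was 1 for OE against WT and 0 for RNAi against WT under every alternative, and 1 to 4 for OE against RNAi, against 2 as reported.

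Differences that were not called changed sign. With arrays centred on their medians they became -0.025 for CYP99A3 in OE against WT, -0.0055 for CYP714D1 in OE against RNAi and -0.011 for LHCP in RNAi against WT. Leaving out 1 array gave, in OE against WT, -0.13 to 0.18 for CYP99A3, -0.53 to 0.058 for CYP71Z6, -0.016 to 0.16 for the second set of CYP76M6 and -0.39 to 0.11 for CYP88A5. In RNAi against WT it gave -0.048 to 0.28 for CYP76M5, -0.13 to 0.016 for CYP76M8, -0.11 to 0.015 for CYP71Z6, -0.29 to 0.12 for CYP76M7, -0.19 to 1.02 for KS10, -0.057 to 1.05 for CPS2, -0.47 to 0.51 for CPS4, -0.26 to 0.0061 for CYP714D1, -0.15 to 0.20 for PAL06, -0.010 to 0.030 for LHCP and -0.19 to 0.0073 for Lhs1. In OE against RNAi it gave -0.47 to 0.12 for CYP71Z6, -0.88 to 0.10 for CPS4, -0.14 to 0.12 for CYP714D1, -0.031 to 0.16 and -0.13 to 0.088 for 2 probe sets of OsrbcS, and -0.14 to 0.12 for Lsi1. The number of arrays, 3 in each group, limits the precision of all values, and CYP76M5, dimmer than the array medians, is left out by the filter on dim probe sets.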
